A study of Mus musculus with 10 samples.

Results

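The vacuolar proton pump and the channels and exchangers that work beside it on lysosomes and endosomes were described in mouse hearts after deletion of Chmp4b. Members were taken by name. They were all rows whose symbol starts with Atp6v or Atp6ap, apart from 2 pseudogenes ending in -ps, together with Clcn3, Clcn5, Clcn6, Clcn7, Ostm1, Mcoln1, Tpcn1, Tpcn2, Tmem175 and Tmem9. This gave 36 of the 55858 genes in the table. Of these, 9 belong to the membrane sector V0, 13 to the cytosolic sector V1 and 3 to the accessory proteins, 10 are channels, exchangers or their partners, and Atp6v1fnb carries only the name of its neighbour Atp6v1f. RNA was sequenced from whole hearts at postnatal day 10. The cKO group (5 mice, MCM; Chmp4bF/F) had tamoxifen under the skin at 0.1 mg/g on 2 days from postnatal day 0. The control group (5 mice, also MCM; Chmp4bF/F) had corn oil, so both groups carry the floxed alleles and the MCM transgene. The labels do not say which promoter drives MCM. The action of tamoxifen itself and that of the deletion cannot be told apart in this design.

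The vacuolar ATPase is a rotary pump that uses ATP to move protons into lysosomes, endosomes and secretory vesicles. V1 carries the ATP-splitting head, the rotor shaft and the stalks, and V0 carries the proteolipid ring through which protons pass. Acid made by the pump activates lysosomal hydrolases, and chloride exchangers and cation channels in the same membranes balance the charge and release calcium. In heart muscle cells this system completes autophagy, the disposal route for worn mitochondria and protein aggregates, and Chmp4b encodes a subunit of the ESCRT-III complex, which cuts membrane necks on the same endosomes.

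Values are TPM (a share of each library's transcripts, corrected for gene length) as the authors deposited them. The share of TPM in mitochondrially encoded genes was 39.4% ± 2.34 in cKO hearts and 55.4% ± 3.96 in control hearts (SD, n = 5 each). TPM is closed to a fixed total, and the median tested gene stood 0.63 higher in cKO on the log2 scale. Each library was therefore also divided by a size factor, which sets the median gene level between libraries, and these values are called scaled TPM. Chmp4b itself averaged 29.5 ± 1.38 scaled TPM in cKO hearts and 60.8 ± 6.51 in control hearts (SD, n = 5 each), which gave a two-sided exact permutation p of 0.00794, the lowest value 5 against 5 libraries can give. Its unscaled mean was 38.2 ± 1.42 TPM in cKO hearts and 47.4 ± 8.61 TPM in control hearts, and those values overlapped. Heart muscle genes were abundant in all libraries (summed TPM of 8 cardiomyocyte markers 35406 to 39378 in cKO and 35614 to 44040 in control). Xist had 54.1, 65.9 and 47.6 TPM in cKO replicates 1, 5 and 7 and at most 0.12 TPM in the other cKO and all control libraries, so the sexes were not balanced between the groups.

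Promoter sequences were available for 28 of the 36 members from RefSeq (GRCm38.p6, 250 bases before to 50 after each annotated start). They are shown because lysosomal genes often carry a short palindrome near their start that is bound by the transcription factors TFEB and TFE3. The 8-letter core TCACGTGA, which reads the same on both strands, stood in 6 of 28 members (21.4%) and in 304 of 27025 genes with a promoter (1.12%). The 6-letter CACGTG inside it stood in 7 of 28 members (25%) and in 8.09% of genes. The 7-letter TCACGTG, searched on both strands, stood in the same 7 members and in 4.29% of genes. A match is a run of letters and not a measured binding site.

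The windows below are 30 bases long, written 5′ to 3′ on the gene's strand with TCACGTGA in capitals, for all 6 members that hold it. Positions are on GRCm38.p6, and starts are those of RefSeq. By the GENCODE coordinates used for genes elsewhere, the windows of Atp6v0e, Atp6v1a and Mcoln1 lie wholly inside the gene.
Atp6v0d1 (chr8:105566050-105566079, minus strand): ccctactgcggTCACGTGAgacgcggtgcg
Atp6v0e (chr17:26676387-26676416, plus strand): tagcgcgccgaTCACGTGAgcctctgttga
Atp6v1a (chr16:44139373-44139402, minus strand): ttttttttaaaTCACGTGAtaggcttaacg
Clcn6 (chr4:148038821-148038850, minus strand): cccggggccagTCACGTGAggcgcggatcc
Clcn7 (chr17:25133386-25133415, plus strand): ccgatgatagaTCACGTGAgacctgggcgc
Mcoln1 (chr8:3500462-3500491, plus strand): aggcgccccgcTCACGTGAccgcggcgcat

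Atp6v0b held CACGTG at a pair of places, shown in capitals, neither of them within TCACGTGA.
Atp6v0b, farther from the start (chr4:117887348-117887377, minus strand): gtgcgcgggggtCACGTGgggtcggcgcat
Atp6v0b, nearer to the start (chr4:117887330-117887359, minus strand): gggtcggcgcatCACGTGcgccggtcaggt

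The 250 bases before the start are given whole for the exchanger gene Clcn7 and the catalytic subunit gene Atp6v1a, which were both higher in cKO on both scales. The scaled difference of Clcn7 was not called in the fits for the uneven sexes described below, while that of Atp6v1a was. Clcn7 holds a further CACGTG before its start (capitals), beside the TCACGTGA just after it. Atp6v1a holds TCACGTGA (capitals) 132 bases before its RefSeq start, inside the gene as GENCODE gives it.
Clcn7 (chr17:25133141-25133390, plus strand): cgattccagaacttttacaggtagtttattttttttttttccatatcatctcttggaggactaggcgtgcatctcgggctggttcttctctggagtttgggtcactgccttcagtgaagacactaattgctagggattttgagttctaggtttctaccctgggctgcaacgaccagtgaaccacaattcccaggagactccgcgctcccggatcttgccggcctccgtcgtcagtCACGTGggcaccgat
Atp6v1a (chr16:44139260-44139509, minus strand): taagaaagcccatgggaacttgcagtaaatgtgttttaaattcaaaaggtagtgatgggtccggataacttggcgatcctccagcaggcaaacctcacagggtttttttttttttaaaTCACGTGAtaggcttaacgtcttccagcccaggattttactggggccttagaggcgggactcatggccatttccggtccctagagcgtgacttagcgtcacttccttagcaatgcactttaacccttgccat

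Pump genes were higher in cKO hearts across both sectors, and the regulatory subunit gene Atp6v1h, the accessory gene Atp6ap2, and the V0 genes Atp6v0a1 and Atp6v0c rose most. Of the 36 members, 28 were tested, and each of these 28 had at least 1 TPM in all 10 libraries. As deposited, limma called 28 of 28 higher in cKO (adjusted p from 1.26e-07 to 0.0456), against a background of 76.5% of all tested genes. Relative to the median gene, 13 of 28 were higher and 1 was lower, where 20.8% of all tested genes were called higher and 20.8% lower. The scaled values of 12 of 28 lay wholly above the control values, against 15.8% of tested genes, and those of 1 lay wholly below, against 15.5%. As deposited, 26 of 28 lay wholly above, against 62.5% of tested genes, and 0 wholly below, against 1.92%. The median log2 difference over the 28 members was 0.93 as deposited and 0.26 relative to the median gene, against 0.63 and 0.01 over all 13282 tested genes. On the scaled values, 10 of 16 pump subunits, 1 of 2 accessory proteins and 2 of 10 channels and partners were higher, the last of these a share close to the background. Atp6v0b, Atp6v1b2, Atp6v1c1, Atp6v1e1, Atp6v1f, Clcn7 and Ostm1 were not called with Ddx3y as a covariate, nor without the 3 cKO libraries with Xist. In those fits 1642 and 1673 of all tested genes were called higher, against 2763 in the full comparison.

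**Figure D1:**
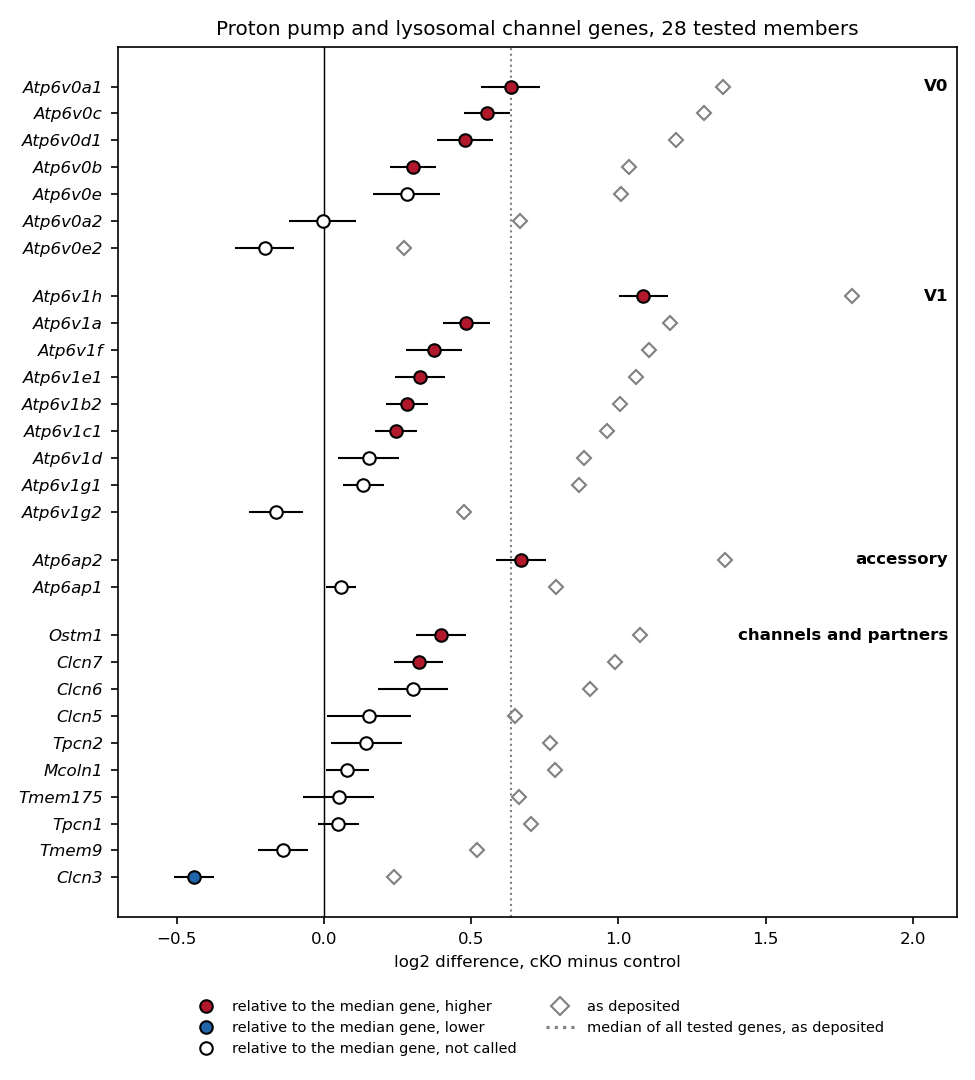
Log2 difference (cKO minus control, x axis) of the 28 tested members, grouped by sector. Circles with SE bars are relative to the median gene (red called higher, blue called lower, white not called), grey diamonds are as deposited, and the dotted line at 0.63 is the median of all tested genes as deposited. All 28 diamonds lie above 0, Atp6v1h lies farthest right and Clcn3 farthest left.

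Marker genes of several cell types differed between the groups in the same samples, those of heart muscle included. The counts below stand beside 20.8% of all tested genes called higher and 20.8% lower relative to the median gene. As deposited, 3.46% of all tested genes were called lower. Macrophage markers were called higher in 12 of 12 genes relative to the median gene (median log2 difference 1.54), with a summed level of 351 to 511 scaled TPM in cKO hearts and 109 to 123 in control hearts. Fibroblast markers were higher in 5 of 5 (750 to 930 scaled TPM in cKO, 467 to 613 in control). Cardiomyocyte markers were lower in 8 of 8 (25665 to 32929 scaled TPM in cKO, 49307 to 52411 in control) and endothelial markers in 6 of 6, while as deposited 3 of the 8 and 0 of the 6 were called lower. The part of these shifts in the pump results was not tested, and in whole hearts fewer cells of a type and less RNA per cell cannot be told apart. Markers of other cells known for high pump levels were also read. Of the renal intercalated cell markers, Foxi1 and Aqp6 were listed at 0 in all libraries and the 4 markers summed to at most 1.01 TPM in cKO and 0.629 TPM in control. The 5 osteoclast markers summed to 13.7 to 18.7 TPM in cKO and 4.81 to 7.73 TPM in control. Calcr was listed at 0 in all libraries, Ocstamp averaged 0.00867 TPM in cKO and 0.0228 TPM in control, and Dcstamp 0.0333 TPM in cKO and 0.164 TPM in control. Acp5, too low to be tested, averaged 1.05 TPM in cKO and 0.212 TPM in control without overlap, and Ctsk, which fibroblasts also express, was higher (15.5 TPM in cKO and 5.58 TPM in control).

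In V1, the most changed gene of all members was Atp6v1h (ENSMUSG00000033793.13, chr1:5070018-5162529 on GRCm38, plus strand), which encodes subunit H. This subunit links V1 to V0 and silences ATP splitting when V1 comes loose. Atp6v1h had 39.5, 34.2, 40.1, 32.0 and 40.8 scaled TPM in cKO replicates 1, 3, 5, 6 and 7, against 15.96, 18.8, 16.3, 17.9 and 16.1 in control replicates 4, 6, 8, 9 and 13. The lowest cKO value, in replicate 6, was still well above the highest control value. Set against the median gene, its log2 difference was 1.09 ± 0.08 (SE, limma adjusted p = 1.93e-06), rank 375 from the top among 13282 genes. As deposited it was 48.4 ± 6.86 TPM in cKO and 13.2 ± 1.94 TPM in control (SD, n = 5 each).

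The catalytic head is built from alternating A and B subunits. Atp6v1a, the A subunit that holds the ATP site, had 17.99, 16.0045, 18.5, 16.4 and 17.2 scaled TPM in cKO (replicates in the order above), against 11.0, 11.2, 12.2, 11.6 and 14.3 in control. The groups did not overlap, and control replicate 13 came closest to the cKO range (log2 difference 0.48, limma adjusted p = 0.000461). Its partner Atp6v1b2 had 46.6, 43.2, 45.8, 38.1 and 38.5 scaled TPM in cKO, against 33.5, 35.1, 33.9, 37.2 and 33.4 in control. Here cKO replicates 6 and 7 lay just above control replicate 9, and the log2 difference was 0.28 (limma adjusted p = 0.00703). Atp6v1b2 was not called with Ddx3y as a covariate or without the 3 cKO libraries with Xist (limma adjusted p = 0.108 and 0.0676).

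The stalk and rotor genes of V1 were called in part. Atp6v1e1, a stalk subunit, had 91.2, 91.8, 101, 96.6 and 119 scaled TPM in cKO, against 78.7, 88.9, 76.8, 82.0 and 70.1 in control. Atp6v1f, a rotor subunit, had 77.9, 75.9, 82.8, 86.7 and 99.9 in cKO, against 75.0, 71.0, 64.0, 58.5 and 57.1 in control. In both genes cKO replicate 7 was highest and the groups were apart by a narrow margin (log2 differences 0.33 and 0.37, limma adjusted p = 0.0095 and 0.00842). Atp6v1c1, which clamps the stalks and is released when the pump comes apart, had 29.1, 28.7, 33.2, 30.1 and 33.1 scaled TPM in cKO, against 24.0, 29.3, 25.4, 26.6 and 24.1 in control. Control replicate 6 overlapped the cKO range, and the log2 difference was 0.25 (limma adjusted p = 0.0175). With Ddx3y as a covariate Atp6v1e1, Atp6v1f and Atp6v1c1 were not called (limma adjusted p = 0.139, 0.104 and 0.201). Nor were they called without the 3 cKO libraries with Xist (limma adjusted p = 0.0822, 0.0855 and 0.19). The rotor gene Atp6v1d (log2 difference 0.15) and the stalk genes Atp6v1g1 (0.13) and Atp6v1g2 (-0.16) were not called on this scale (limma adjusted p = 0.27, 0.141 and 0.186).

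In V0, the gene for the a1 subunit changed most. The a subunit forms the path for protons beside the ring and directs the pump to a given membrane. Atp6v0a1 (chr11:101009452-101063719, plus strand) had 50.6, 42.8, 54.1, 42.3 and 43.9 scaled TPM in cKO, against 33.5, 24.99, 26.8, 31.1 and 32.5 in control. All 5 cKO values were above all 5 control values (log2 difference 0.63 ± 0.10 SE, limma adjusted p = 0.000347). Its paralog Atp6v0a2, known for its place on Golgi and endosomes, had 10.9, 10.9, 10.2, 8.39 and 7.36 in cKO, against 8.97, 9.39, 8.82, 11.5 and 8.97 in control. Those groups were interleaved (log2 difference -0.0043, limma adjusted p = 0.98), although as deposited Atp6v0a2 was higher by 0.67. Atp6v0a2 overlaps 4930404A12Rik on the opposite strand, which reached 5.52 TPM. The strand setting of the counting is unknown, so reads of these genes may be mixed.

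The proteolipid ring turns against the a subunit and carries the protons. Atp6v0c (chr17:24163866-24169702, minus strand), its main component, was the most abundant member. It had 172, 163, 179, 172 and 219 scaled TPM in cKO, against 119, 131, 120, 119 and 124 in control. The control values were tightly grouped and cKO replicate 7 was the highest (log2 difference 0.55 ± 0.08 SE, limma adjusted p = 0.000158). The excluded pseudogene Atp6v0c-ps2 ranged over 0.408 to 4.37 TPM in cKO hearts and 1.35 to 3.46 TPM in control hearts, and how reads shared between the 2 genes were split is uncertain.

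Atp6v0b, the c″ ring component, had 85.8, 80.5, 93.5, 94.2 and 101 scaled TPM in cKO, against 77.3, 79.4, 63.7, 73.9 and 72.8 in control. Atp6v0d1, which couples the ring to the rotor, had 32.5, 31.5, 35.1, 32.4 and 40.4 in cKO, against 24.0, 25.8, 28.8, 22.3 and 21.2 in control. Neither gene overlapped between groups, and the margin was wider for Atp6v0d1 (log2 difference 0.48, limma adjusted p = 0.0016) than for Atp6v0b (0.30, limma adjusted p = 0.00834). Atp6v0b was not called with Ddx3y as a covariate or without the 3 cKO libraries with Xist (limma adjusted p = 0.116 and 0.113). The small subunit genes Atp6v0e and Atp6v0e2 were not called relative to the median gene (0.28 and -0.20, limma adjusted p = 0.0677 and 0.13).

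**Figure D2:**
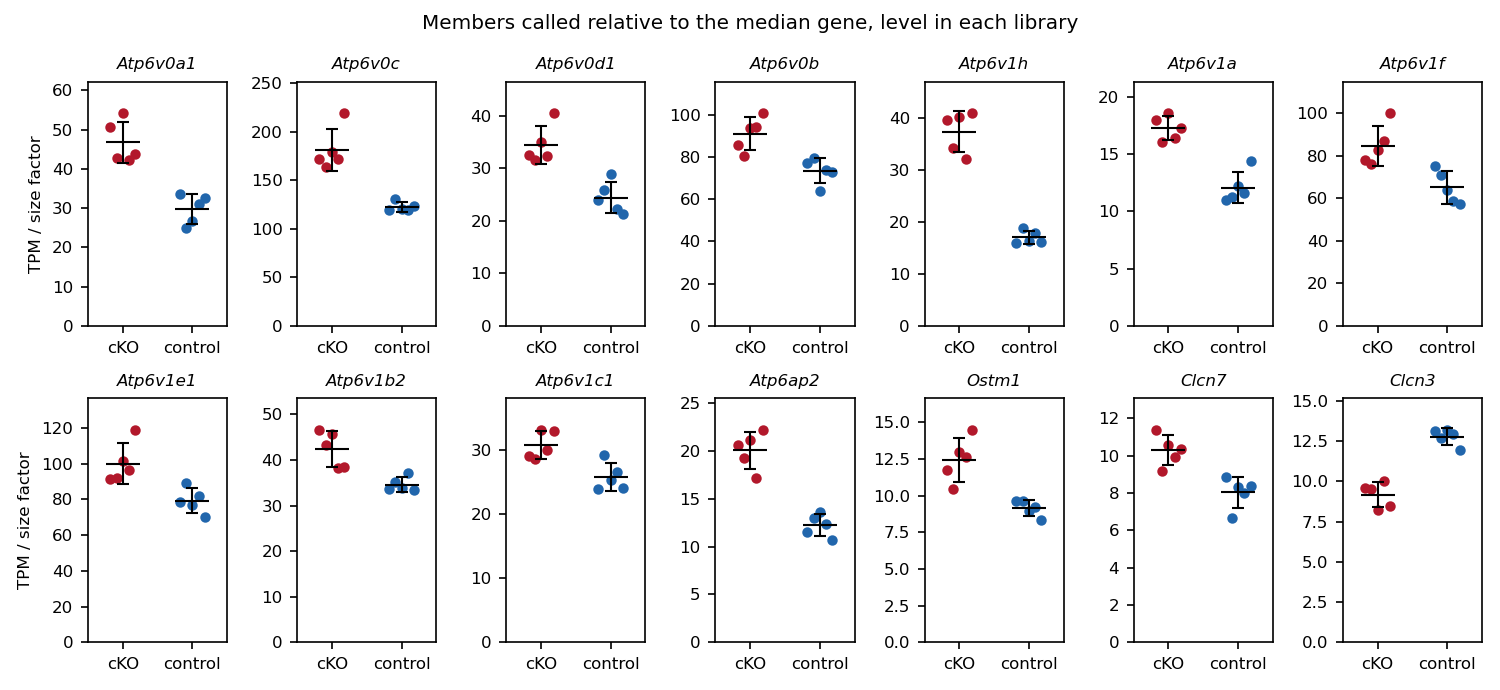
Scaled TPM (TPM divided by the size factor, y axes from 0) of the 14 members called relative to the median gene, with 5 cKO libraries (red, left) and 5 control libraries (blue, right) in each panel. Bars are means with SD. The groups are apart in all panels except Atp6v1c1, and Clcn3 alone is lower in cKO.

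The accessory proteins help the pump assemble and mature in the endoplasmic reticulum. Atp6ap2, also known as the prorenin receptor (chrX:12587801-12617049, plus strand), had 20.6, 19.2, 21.1, 17.1 and 22.2 scaled TPM in cKO, against 11.6, 13.01, 13.6, 12.3 and 10.7 in control. The groups were well apart (log2 difference 0.67 ± 0.08 SE, limma adjusted p = 7.17e-05). Atp6ap1, the Ac45 protein, had 58.1, 59.5, 61.1, 58.8 and 61.8 scaled TPM in cKO, against 61.8, 55.4, 55.5, 56.3 and 58.4 in control, with overlap (log2 difference 0.06, limma adjusted p = 0.399). As deposited Atp6ap1 was higher by 0.79. Both genes and Clcn5 are X-linked, and cKO replicates 3 and 6, which like all controls had Ddx3y, gave the 2 lowest cKO values of Atp6ap2 and still lay above all controls.

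Among the chloride exchangers, Clcn7 was higher and Clcn3 lower relative to the median gene, and all 4 were higher as deposited. Clcn7 encodes the exchanger of the lysosomal membrane and Ostm1 the partner it needs for stability. Clcn7 had 11.4, 9.20, 10.6, 9.94 and 10.4 scaled TPM in cKO, against 8.85, 6.66, 8.30, 7.98 and 8.40 in control. Ostm1 had 11.7, 10.4, 12.96, 12.6 and 14.5 in cKO, against 9.64, 9.62, 8.93, 9.25 and 8.38 in control. Neither overlapped between groups, with log2 differences of 0.32 and 0.40 (limma adjusted p = 0.00869 and 0.00265). With Ddx3y as a covariate the adjusted p of limma was 0.153 for Clcn7 and 0.0674 for Ostm1, and without the 3 cKO libraries with Xist it was 0.179 and 0.0621, so neither was called there. Clcn3 (chr8:60910389-60983300, minus strand), an exchanger of endosomes, was the 1 member called lower relative to the median gene, and it was called higher by 0.24 as deposited (limma adjusted p = 0.0415). It had 9.57, 9.55, 8.20, 10.004 and 8.498 scaled TPM in cKO, against 13.1, 12.7, 13.2, 12.9 and 11.9 in control. All cKO values lay below all control values on that scale (log2 difference -0.44 ± 0.07 SE, limma adjusted p = 0.000329). Clcn6 of late endosomes and Clcn5 of endosomes were not called relative to the median gene (0.30 and 0.15, limma adjusted p = 0.0611 and 0.419).

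The cation channels stayed near the median gene. Mcoln1, the TRPML1 channel that releases calcium from lysosomes, had 19.1, 20.2, 19.2, 20.7 and 19.0 scaled TPM in cKO, against 20.4, 18.9, 17.03, 16.4 and 20.3 in control. The groups overlapped (log2 difference 0.08, limma adjusted p = 0.414). The NAADP- and lipid-gated channel genes Tpcn1 (0.05) and Tpcn2 (0.14), the potassium and proton channel gene Tmem175 (0.05) and Tmem9 (-0.14), a membrane protein of late endosomes and lysosomes, were not called on this scale either (limma adjusted p = 0.609, 0.374, 0.768 and 0.223). As deposited, these 5 genes were higher by 0.52 to 0.78. Tmem175 overlaps the gene Dgkq on the opposite strand, and the strand setting of the counting is unknown, so reads of the pair may be mixed.

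Ratios between members within a library do not depend on how libraries are scaled. The pairs were chosen after the values were seen and are given without a test. Atp6v1h over Atp6v1c1 was 1.36, 1.19, 1.21, 1.06 and 1.23 in cKO, against 0.666, 0.642, 0.641, 0.673 and 0.668 in control, so H exceeded C in every cKO library and was below it in every control library. Atp6ap2 over Atp6ap1 was 0.291 to 0.359 in cKO and 0.184 to 0.245 in control, without overlap. Clcn7 over Clcn3 was 1.19, 0.964, 1.29, 0.993 and 1.218 in cKO, against 0.674, 0.525, 0.629, 0.618 and 0.703 in control. Ostm1 over Clcn7, the partners of the lysosomal exchanger, was 1.21 ± 0.139 in cKO and 1.153 ± 0.173 in control (SD, n = 5 each) and overlapped. Summed V1 over summed V0 TPM was 1.08 to 1.146 in cKO and 1.11 to 1.29 in control, with only control replicate 13 inside the cKO range.

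**Figure D3:**
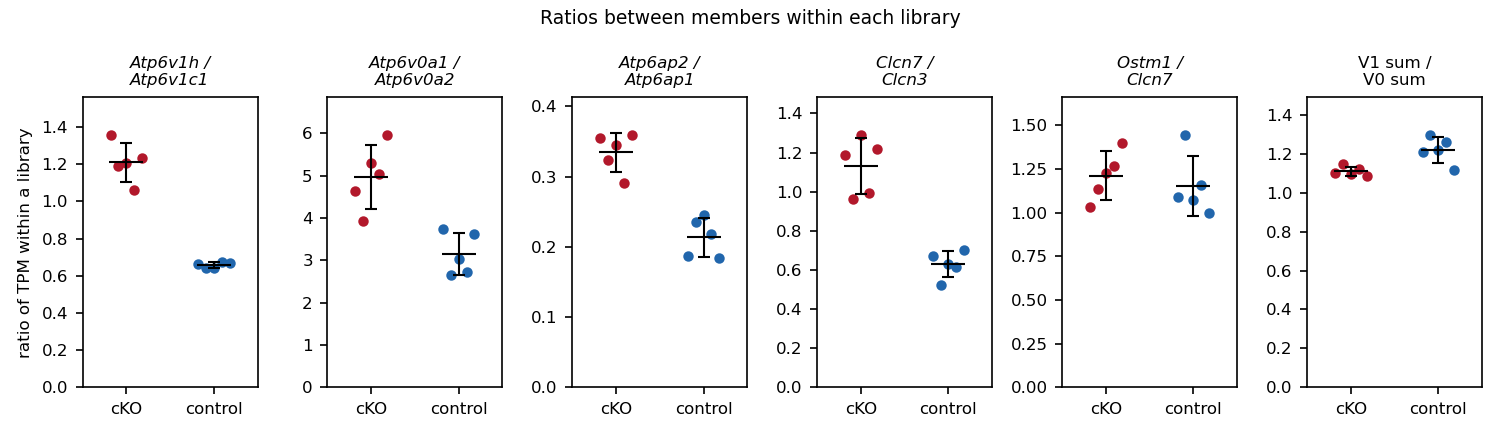
Ratio of TPM between members within each library (y axes from 0), with 5 cKO libraries (red, left) and 5 control libraries (blue, right) and bars for mean and SD. Atp6v1h over Atp6v1c1, Atp6v0a1 over Atp6v0a2, Atp6ap2 over Atp6ap1 and Clcn7 over Clcn3 are higher in all cKO libraries, while Ostm1 over Clcn7 and V1 over V0 overlap.

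Several subunits have paralogs that are used in different tissues, and the share of each was computed within its family. The a family was counted with Tcirg1, the a3 gene of osteoclasts and macrophages, which lies outside the naming rule. Atp6v0a1 made up 63.8% ± 2.06 of this family in cKO and 54.9% ± 3.72 in control (SD, n = 5 each), without overlap. Tcirg1 made up 22.9% ± 2.30 in cKO and 27.3% ± 5.41 in control, with overlap. Tcirg1 was not called relative to the median gene (log2 difference 0.19, limma adjusted p = 0.397). Atp6v0e2 made up 2.73% ± 0.471 of the e family in cKO and 4.03% ± 0.419 in control, without overlap. Atp6v1g2, the G form known from neurons, made up 6.28% ± 0.921 of the G family in cKO and 7.72% ± 0.812 in control, with overlap, and its gene overlaps Nfkbil1 on the opposite strand.

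The remaining 8 members were too low to be tested. Atp6v0d2, the d form of osteoclasts and macrophages, had 1.76, 0.477, 0.596, 0.234 and 0.365 TPM in cKO, against 0, 0.0949, 0, 0 and 0 in control. It was seen in every cKO library and listed at 0 in 4 of 5 control libraries, and it made up 1.496% ± 1.30 of the d family in cKO. Atp6v0a4 and Atp6v1b1, forms of kidney and inner ear, reached 0.786 and 0.0402 TPM at most in cKO, against 0.0302 and 0 in control. Atp6v1c2, Atp6v1e2 (a testis form) and Atp6ap1l stayed below 0.6 TPM in all libraries. Atp6v1g3 and Atp6v1fnb were listed at 0 in all 10. The ubiquitous forms Atp6v1b2, Atp6v1c1, Atp6v1e1 and Atp6v0d1 thus made up 98.5% to 99.99% of their families on average in cKO and 99.87% to 100% in control.

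Within the pump, the order of levels was similar in the 2 groups as deposited. Atp6v0c was highest at 234 ± 26.8 TPM in cKO and 95.1 ± 10.5 in control, followed by Atp6v1e1 at 129 ± 13.2 and 61.8 ± 9.79 (SD, n = 5 each). Atp6v0b, Atp6v1g1 and Atp6v1f followed at 117, 110 and 109 TPM in cKO and did not differ from each other beyond their spread. Atp6v1h stood below Atp6v1c1 and Atp6v0d1 in control (13.2, 20.2 and 19.1 TPM) and above both on average in cKO (48.4, 39.9 and 44.5 TPM). Atp6v0e2 was the lowest tested pump gene in both groups, at 2.07 ± 0.257 TPM in cKO and 1.54 ± 0.286 TPM in control.

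**Figure D4:**
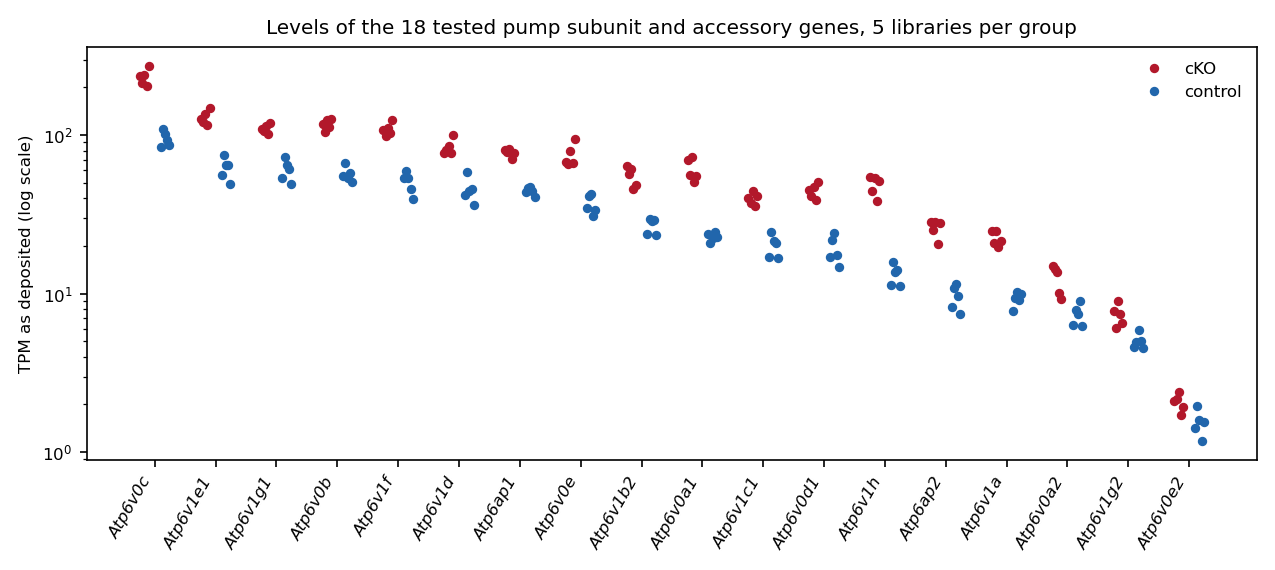
TPM as deposited (log scale) of the 18 tested pump subunit and accessory genes, ordered by control mean, with 5 cKO libraries (red, left of each pair) and 5 control libraries (blue). Atp6v0c is highest in both groups, and values of the groups are apart for every gene but Atp6v0e2.

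The 6 members with TCACGTGA in their promoter were compared with the 16 other tested members that have a promoter sequence. Atp6v0d1, Atp6v1a and Clcn7 were called higher relative to the median gene, while Atp6v0e, Clcn6 and Mcoln1 were not, a count of 3 of 6. Of the 16 without it, 7 were called higher, among them Atp6v0a1, Atp6v0c and Atp6ap2, where 20.8% of all tested genes were called higher. The median log2 difference was 0.31 in the 6 and 0.15 in the 16. Tested members with no promoter sequence were left out, among them Atp6v1h, the most changed member, and Atp6v1b2. The median over all 28 tested members was 0.26. Any link between the motif and the differences was not tested.

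Genes that assemble and control the pump were counted for context. The list also held Tcirg1, a subunit gene of the pump, which was not called relative to the median gene. All 14 genes of the list were tested, and 4 were higher and 1 lower on that scale (median 0.09). These counts are to be read against 20.8% of all tested genes in each direction. Dmxl2, a rabconnectin that helps V1 dock onto V0, had 12.1 ± 1.70 TPM in cKO and 3.56 ± 0.529 TPM in control (SD, n = 5 each) and rose by 0.89 on the relative scale (limma adjusted p = 4.78e-06). Tbc1d24 and the assembly gene Tmem199 rose by 0.64 and 0.44, and Ccdc115, the partner of Tmem199 and named after its value was seen, by 0.29. Scaled values of Tbc1d24 overlapped between groups, and Tbc1d24 was not called with Ddx3y as a covariate (limma adjusted p = 0.283). Nor was it called without the 3 cKO libraries with Xist (limma adjusted p = 0.3). Oxr1, which in yeast and mammals is tied to disassembly of the pump, was lower by 0.36 (log2 difference -0.36, limma adjusted p = 0.0036) but higher by 0.35 as deposited. Without mitochondrially encoded genes in the total, where the median of all genes was 0.26, Oxr1 stood at -0.074 (limma adjusted p = 0.52).

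The Ragulator and Rag proteins sit on the pump and report amino acid supply to mTORC1. Their genes were counted together with Slc38a9, Flcn, Fnip1 and Fnip2, which are neither Ragulator nor Rag genes. Of these 13 tested genes, 6 were higher and 1 lower relative to the median gene (median 0.19), beside the same 20.8% each way. Rragc and Rragd rose by 0.55 each, Fnip2 by 0.48 and Lamtor1 by 0.43 (limma adjusted p = 0.00012, 0.000693, 0.00101 and 0.00335). Lamtor1 was not called with Ddx3y as a covariate (limma adjusted p = 0.0708). Fnip1, named after its value was seen, was lower (log2 difference -0.29) but higher by 0.38 as deposited. Fnip1 lost the call with Ddx3y as a covariate and without the 3 cKO libraries with Xist (limma adjusted p = 0.061 and 0.09). It was also not called without mitochondrially encoded genes in the total (limma adjusted p = 0.832). Of the 3 genes that make the lipid PI(3,5)P2, which opens TRPML1 and TPC channels, the scaffold gene Vac14 was higher (0.36).

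Of 13 other endolysosomal channels, exchangers and partners, 11 were tested, with 5 higher and 2 lower relative to the median gene (median 0.24), again beside 20.8% each way. Lamp1 had 333 ± 45.4 TPM in cKO and 113 ± 14.7 TPM in control (SD, n = 5 each) and rose by 0.81, Lamp2 by 0.51, both abundant proteins of the lysosomal membrane. The sodium-proton exchanger gene Slc9a9 rose by 0.79 and the ATP-gated channel gene P2rx4 by 0.52. P2rx4 lost the call with Ddx3y as a covariate and without the 3 cKO libraries with Xist (limma adjusted p = 0.103 and 0.0975). Clcn4, a close relative of Clcn3 named after its value was seen, was lower (log2 difference -0.25, limma adjusted p = 0.00319). As deposited Clcn4 was higher by 0.46. Without mitochondrially encoded genes in the total, where the median of all genes was 0.26, Clcn4 stood at 0.035. Without the 3 cKO libraries with Xist Clcn4 was not called (limma adjusted p = 0.0551).

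Of the 13 members called higher relative to the median gene, 6 were called in all 21 alternatives, namely Atp6v1h, Atp6ap2, Atp6v0a1, Atp6v0c, Atp6v0d1 and Atp6v1a. The other 7 (Atp6v0b, Atp6v1b2, Atp6v1c1, Atp6v1e1, Atp6v1f, Clcn7 and Ostm1) lost the call, with the same sign, in the fit with Ddx3y as a covariate and in that without the 3 cKO libraries with Xist. There 1642 and 1673 of all tested genes were called higher, against 2763 in the full comparison. Clcn3 kept its call in 20 of 21 and stood at -0.17 (limma adjusted p = 0.11) when TPM was rescaled without mitochondrially encoded genes, where the median of all genes was 0.26.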

How the data were processed

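The authors deposited a table of TPM for 10 heart libraries, 1 per mouse, from total RNA (1 μg per library). The submitters' processing notes name, with no role or order, STAR 2.7.1, HTSeq 0.11.2, DESeq2 1.22.2, Picard 1.96, Trimmomatic 0.32, FastQC 0.11.7 and bcl2fastq, and the build mm10. The sources used here give no annotation, gene lengths or strand setting. TPM keeps no depth, so no counting interval is given. No 2 libraries held identical values. Coordinates are from GENCODE M21 (GRCm38), matched by gene ID for 36 of 36 members, and promoters are from RefSeq.

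A gene was tested if 5 or more libraries held it at 1 TPM or above (13282 genes). Values were analysed as log2(TPM + 1), which understates folds of low genes, with limma 3.58.1 in R 4.3.3 (mean-variance trend, two-sided), and Benjamini-Hochberg adjusted over all tested genes with a threshold of 0.05. The same fit was run on TPM divided by median-of-ratios size factors from 16393 genes ("relative to the median gene"). The method was tested on simulated data. Python 3.11.15, numpy 2.4.6 and pandas 2.3.3 handled tables.

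The members and lists were chosen with earlier results of these data known. All members are accounted for, with values per library for those called relative to the median gene, and the called genes with the largest differences, up to 4, are named per context list. Ccdc115, Fnip1, Clcn4 and Tcirg1 were added after their values were seen, and 1 result is not reported here. Each library was left out in turn, and other pseudocounts, filters, scalings and variance models, weights per library and Ddx3y as a covariate were tried. Leaving out the 3 cKO libraries with Xist was added after seeing the data.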

Additional observations from a re-analysis of the deposited data

Results flagged for a closer look

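Among 87 groups of 5 libraries examined, 7 had a library far from the other 4. Chance gives such a gap in about 1 in 20 groups of normally distributed values. A group with 1 library above 0 and the other 4 at 0 always passes, so that rate does not hold for such groups. All 7 were in members too low to be tested. Atp6v0a4 had 0.786 TPM in cKO replicate 5, against 0.039 to 0.0685 in the other cKO libraries. It overlaps D630045J12Rik on the same strand, which reached 1.13 TPM, and any mixing of their reads was not tested. Atp6v0d2 had 1.76 TPM in cKO replicate 1 and 0.234 to 0.596 in the other cKO libraries, and 0.0949 in control replicate 6 with 0 in the other control libraries. Within the cKO group, replicate 7 alone was above 0 for Atp6v1b1 (0.0402 TPM) and Atp6v1e2 (0.0975 TPM). Atp6v1e2 also had 0.244, 0.0811 and 0.0716 TPM in control replicates 8, 9 and 13. For Atp6v1c2, cKO replicate 1 and control replicate 13 were each alone above 0 in their group (0.115 and 0.103 TPM).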

How the results depend on the processing

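No paired analysis was possible because the groups share only 1 replicate number. As deposited, 24 to 28 members were called higher over 18 alternatives. The 24 were all that a filter on a mean of 5 TPM kept, and of the members tested only Clcn3 and Atp6v0e2 lost the call in any alternative (9 of 18 and 11 of 17). Relative to the median gene, 13 to 14 members were called higher and 1 to 2 lower without any 1 library, with a median of 0.22 to 0.28. Of all 13282 tested genes, 2529 to 2712 were called higher and 2499 to 2756 lower there. With a Ddx3y covariate 6 members were called higher (median 0.19), and without the 3 cKO libraries with Xist also 6 (median 0.19). In these fits 1642 and 1673 of all 13282 tested genes were called higher. A pseudocount of 5 gave a median of 0.19. Without mitochondrially encoded genes in the total, where the median of all genes was 0.26, 21 were called higher and 0 lower (median 0.54), where 6065 of all tested genes were called higher and 1393 lower. The cause of these differences was not tested.

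Signs turned only in genes not called relative to the median gene, and in Clcn4. Atp6v0a2 (-0.0043) stood at 0.0332 with library weights, 0.0142 with the Ddx3y covariate, 0.0151 without the Xist libraries, 0.26 without mitochondrially encoded genes and 0.0151 with upper-quartile scaling. It ranged from -0.0501 to 0.0778 without any 1 library. Tmem175 (0.05) stood at -0.14 with the Ddx3y covariate and -0.13 without the Xist libraries, and ranged from -0.0176 to 0.118 without any 1 library. Tpcn1 (0.05) stood at -0.00879 and -0.00185 in the same 2 fits. Without mitochondrially encoded genes, Atp6v1g2 stood at 0.0917, Tmem9 at 0.12 and Clcn4 at 0.0351. Shares of Atp6v0a1, Atp6v0a2, Tcirg1 and the e and G forms kept their direction without any 1 library, and those of the low paralogs Atp6v1b1 and Atp6v1c2 rest on single libraries. Read depth is unknown, so a member listed at 0 may have been missed.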
